A study of Mus musculus with 6 samples.

Results

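The genes described here encode the subunits of the main receptors for glutamate and GABA. They were chosen by symbol among the mouse genes of the deposited feature lists: the AMPA receptor subunits Gria1 to Gria4, the NMDA receptor subunits Grin1, Grin2a to Grin2d, Grin3a and Grin3b, the kainate receptor subunits Grik1 to Grik5, the metabotropic glutamate receptors (symbols in Grm), the GABA-A receptor alpha, beta, gamma and delta subunits (symbols in Gabra, Gabrb and Gabrg, and Gabrd), and the GABA-B receptor subunits Gabbr1 and Gabbr2. This gave 39 of 32288 genes, with 4 for AMPA, 7 for NMDA, 5 for kainate and 8 for metabotropic glutamate receptors, 13 for GABA-A and 2 for GABA-B receptors.

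Their RNA was measured by spatial transcriptomics (Visium, which captures the 3' ends of polyadenylated RNA on barcoded spots and counts molecules by unique molecular identifiers, UMIs) in 6 coronal sections of a brain hemisphere of female mice. All mice carried human APOE3 (E3) or APOE4 (E4) in place of the mouse Apoe coding region and under the mouse promoter. Young mice were 3 months old, aged mice 24 months, and the 5xFAD mice, which were bred from homozygous APOE mice and the 5xFAD strain and carried its human transgenes, mutant APP among them, under the neuronal Thy1 promoter, were 12 months old. There was 1 section, from 1 mouse, for each genotype and condition, so 5xFAD sections differed from young sections in age as well as in transgenes, and these cannot be told apart. The labels name the tissue as brain but give non-neuronal brain cells in another field. All 13 neuronal marker genes of the list used here (among them Snap25, Syt1 and Map2) had UMIs in the cortex of each of the 6 sections.

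Fast excitation in the brain runs through AMPA and kainate receptors, which are tetramers that open when glutamate binds, while NMDA receptors combine the obligate subunit encoded by Grin1 with regulatory subunits and admit calcium only when the membrane is already depolarized. Metabotropic glutamate receptors and GABA-B receptors signal through G proteins, whereas GABA-A receptors are pentameric chloride channels whose alpha, beta and gamma or delta subunits set their kinetics, drug sensitivity and place at or away from the synapse. Neurons of different brain areas use different subunits of each family.

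The 6 sections held 1688 to 2773 usable spots each, 14524 in all, and 20343701 to 37266232 UMIs. A spot covers several cells, so areas are groups of spots and a lower level can mean fewer cells of a type or less RNA per cell, which cannot be told apart. Spots were clustered without the 39 members among the genes used, and the clusters were assigned by marker genes to the cerebral cortex, the cerebral nuclei, hippocampus, hypothalamus, thalamus, fiber tracts and smaller areas. A cluster led by Six3, Pvalb, Spp1 and Gad1 is called the reticular thalamus area, although the marker scores used for the other clusters were highest for fiber tracts in it. The name rests on the reticular markers among its leading genes (5 of 10), a rule set after the clusters were seen. Levels are UMIs scaled to 1000000 UMIs of the area and section (CPM). They are not divided by gene length, so levels are compared between areas and sections and not between genes. Where 6 values follow each other below, they are those of the young, then the aged, then the 5xFAD sections, with E3 before E4 in each pair. Cortex held 900, 804, 730, 190, 940 and 853 spots in that order. The E4 aged cortex was thus small, and the 2 clusters of upper cortical layers gave 15 spots and 1 spot to it. Layer 5 gave 6 spots and layer 6 gave 34. The other 134 came from a cortical cluster without a named layer, led by Ccn3, C1ql3 and Lypd1, so its cortical values mostly describe that cluster. In E4 young, 109 of the 396 spots of the thalamus came from a medial cluster that gave at most 3 spots in any other section, and no habenula spots were found. A total of 2735 barcodes occurred in more than 1 section, since Visium capture areas use the same list of barcodes. The names of the deposited files of both 5xFAD sections share a prefix that the other 4 sections do not have. What it stands for is not stated, and it cannot be told apart from the 5xFAD condition.

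In cortex the human APP gene had 0 to 5 UMIs in the 4 sections without transgenes and 1232 and 1795 in the 5xFAD sections, which fits the labels, and human APOE was present in each section at 561 to 896 CPM.

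Many receptor subunits kept 1 leading brain area through all sections. Of the 39 members, 19 were highest in the same area, of the 7 with enough spots, in all 6 sections. Among all genes with at least 100 UMIs, 16.0% behaved this way (2426 of 15122), and 36 of the members reached that number of UMIs. Among them, the hippocampus led for Gria1, Gria2, Grin1, Grin2a, Grin2b and Gabra5, the thalamus for Grin2c, Grin2d, Grm4, Gabra4, Gabrd, Gabbr1 and Gabbr2, the cortex for Gria3 and Gabra3, the hypothalamus for Gabrg1 and the cerebral nuclei for Grm5. For 12 of these 19 the lowest section of the leading area was above the highest section of every other area. Elsewhere below means these other 6 areas. Areas come from the same sections, so these orders are descriptions without a test. The number was 20 with clusters made without centring by section and 20 with spots of at least 5000 UMIs only.

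**Figure D1:**
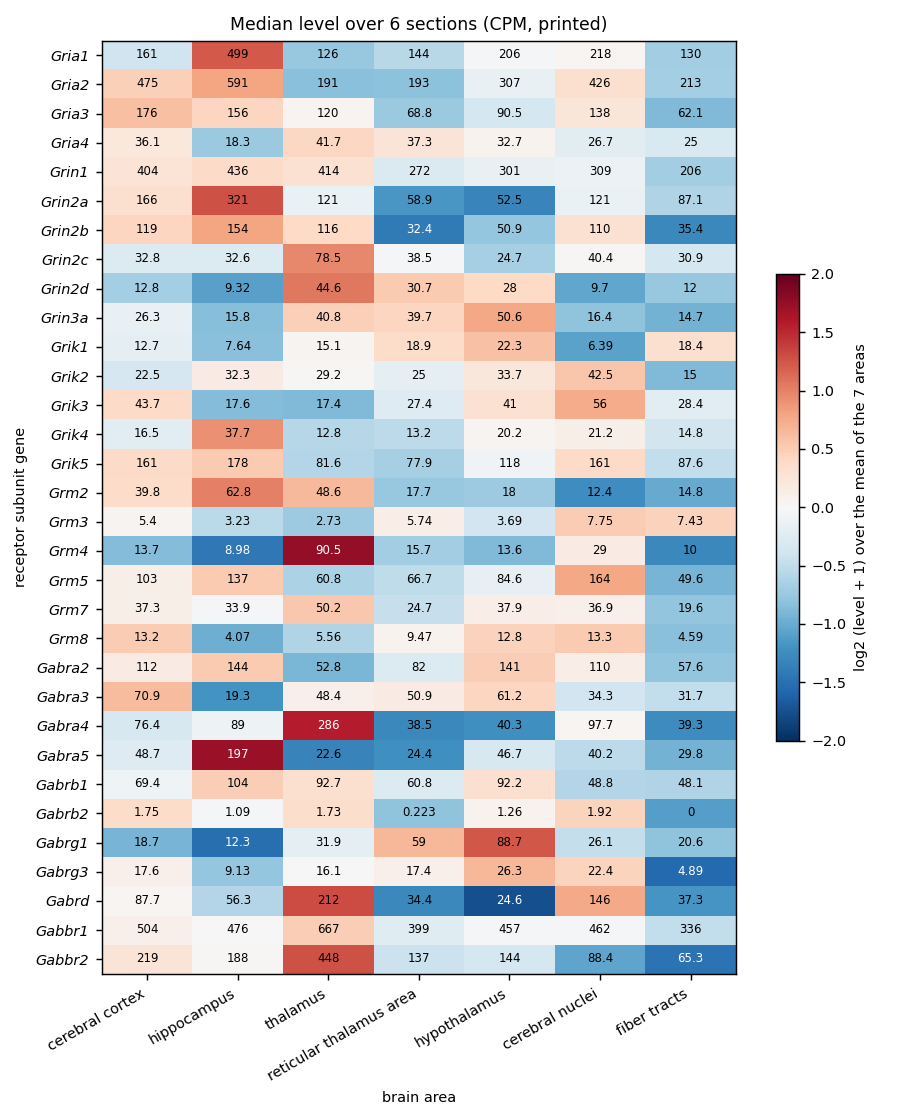
Median level over the 6 sections (CPM, printed in each cell) of 32 members with at least 100 UMIs, by brain area. Color shows log2 of the level plus 1 relative to the gene's mean over the 7 areas. Red cells stand out for Grm4 and Gabra4 in thalamus (90.5 and 286 CPM) and for Gria1, Grin2a and Gabra5 in hippocampus (499, 321 and 197 CPM).

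Promoter sequences are shown for 3 members on which the results below turn: Gabra5, which led in hippocampus, Grin2c, which led in thalamus, and Gabbr2, which led in thalamus and was lower in each E4 than in each E3 section of 4 areas. They are the 250 bases before the start of 1 transcript of each gene, 5' to 3' on the gene's strand, from RefSeq on GRCm38.p6. The RefSeq gene model of Gabra5 reaches further upstream, to position 57591016 of chromosome 7, and that of Grin2c to position 115267297 of chromosome 11, so these windows lie within or overlap the models, and other starts of these genes are not shown. The window of Gabbr2 overlaps its GENCODE vM21 model, which reaches position 46991873 of chromosome 4. Capitals mark the GC box GGGCGG on either strand (CCGCCC when read on the gene's strand), with matches that overlap each other counted separately.
Gabra5, chr7:57510060-57510309, minus strand: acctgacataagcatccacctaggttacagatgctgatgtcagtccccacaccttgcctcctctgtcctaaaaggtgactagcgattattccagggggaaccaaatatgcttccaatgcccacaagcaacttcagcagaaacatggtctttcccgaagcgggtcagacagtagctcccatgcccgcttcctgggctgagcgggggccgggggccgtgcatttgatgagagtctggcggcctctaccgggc
Grin2c, chr11:115267244-115267493, minus strand: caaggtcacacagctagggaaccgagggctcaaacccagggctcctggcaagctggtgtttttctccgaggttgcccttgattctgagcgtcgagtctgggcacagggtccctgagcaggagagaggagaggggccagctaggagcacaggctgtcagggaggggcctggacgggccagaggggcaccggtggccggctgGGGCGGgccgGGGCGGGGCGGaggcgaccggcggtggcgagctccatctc
Gabbr2, chr4:46991715-46991964, minus strand: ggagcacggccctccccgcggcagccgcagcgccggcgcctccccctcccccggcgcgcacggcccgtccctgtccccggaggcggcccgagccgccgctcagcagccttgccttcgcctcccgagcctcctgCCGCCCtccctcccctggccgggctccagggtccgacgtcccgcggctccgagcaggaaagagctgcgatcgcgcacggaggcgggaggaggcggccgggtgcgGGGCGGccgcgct
The box occurred 0 times for Gabra5, 3 times for Grin2c and 2 times for Gabbr2, and the windows held 56.4%, 68.8% and 80.8% G and C. Of the 39 members 26 had a promoter in the table, and 14 of these held the box, as did 32.7% of all 32851 promoters of the same length. TATAAA was found in 3 of the 26 (12.4% of all promoters), CACGTG in 1 (6.02%) and TGACGTCA, a motif of cAMP response elements, in 0 (1.55%). Median G and C content was 62.2% for the members and 52.4% for all promoters. A match is a string of letters and not a measured binding site.

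Among the AMPA receptor subunits, Gria1 and Gria2 were highest in hippocampus. Gria1, whose product moves to synapses during potentiation, had 522.5, 506.9, 468.4, 479.2, 530.2 and 491.0 CPM in hippocampus, and no section of another area passed 253.5 CPM. Gria2, whose edited product makes the channel impermeable to calcium, had 528 to 644 CPM there and at most 508.2 elsewhere, so the areas did not overlap though the medians (591 CPM in hippocampus, 475 in cortex) lay closer. The share of Gria1 among the UMIs of Gria1 to Gria4 was 40.0% in hippocampus and 19.9% in cortex (medians of 6 sections), with no overlap of sections (37.0% to 41.1% and 17.4% to 22.7%). Gria3 had its highest level in cortex (165.6 to 204.5 CPM) with hippocampus close behind (150.4 to 162.1). Gria4, a subunit of fast AMPA receptors of interneurons and the thalamus, ranged from 15.3 to 20.1 CPM in hippocampus and from 40.4 to 48.4 CPM in thalamus. Summed over the family, the median was 1287 CPM in hippocampus, 838 in cortex and 483 in thalamus.

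Within the hippocampus the smaller clusters could be called CA1, CA3 and dentate gyrus from their markers, with few spots each (119, 322 and 152 over the 6 sections). The largest cluster, with 1131 of the 1724 hippocampal spots, could not be named within the hippocampus. It was led by Cabp7, C1ql2 and Fibcd1, and the values of CA1, CA3 and dentate gyrus leave it out. Gria1 had a median of 783 CPM in CA1, 639 in dentate gyrus and 414 in CA3. In CA3 the values of all 6 sections (405.2 to 441.3 CPM) lay below those of the dentate gyrus (570.1 to 682.8 CPM).

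NMDA receptor subunits divided between hippocampus and thalamus. Grin2a, the subunit that gives mature NMDA receptors their fast decay, had 325.6, 314.2, 311.4, 333.7, 347.6 and 316.7 CPM in hippocampus and 131.0 to 176.2 CPM in cortex, the next area. In CA1 its median was 558 CPM. Grin2b, the subunit of slower receptors that dominates early in life, was also highest in hippocampus (133.3 to 181.3 CPM), but here the sections overlapped with cortex (91.0 to 135.4 CPM). Grin2c, best known from cerebellar granule cells, had 82.0, 72.3, 70.8, 79.4, 77.6 and 81.5 CPM in thalamus and at most 54.0 CPM elsewhere. In the meninges, a smaller area with 163 UMIs of Grin2c in all, it ranged from 30.8 to 102 CPM. Grin2d, which forms receptors with little magnesium block, had a median of 44.6 CPM in thalamus and 30.7 in the reticular thalamus area, and these overlapped. As a share of Grin2a to Grin2d, Grin2a took 62.1% in hippocampus, 50.9% in cortex and 33.3% in thalamus, while Grin2d took 1.76% in hippocampus, 17.7% in hypothalamus and 20.2% in the reticular thalamus area. Grin3a, a glycine-binding subunit that lowers calcium flow, had 46.0 to 73.9 CPM in hypothalamus and was highest there in 5 of 6 sections. Grin1, with the most UMIs of the family (70752), had medians of 436 CPM in hippocampus, 414 in thalamus and 404 in cortex.

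Kainate receptor subunits were low except for Grik5, an auxiliary high-affinity subunit, with 25354 UMIs and a median of 178 CPM in hippocampus, 161 in cortex and 161 in cerebral nuclei. None of the 5 had the same leading area in all 6 sections. Grik4, Grik3 and Grik2 differed within areas. Grik4, known for its place at mossy fiber synapses, had 95.8, 78.1, 87.7, 80.9, 75.8 and 81.5 CPM in CA3 and 3.76 to 15.4 CPM in CA1. In the dentate gyrus, whose granule cells send the mossy fibers, its level was 24.1 to 40.7 CPM, between the other areas and without overlap. Grik3 had a median of 75.6 CPM in cortical layer 6 and 22.2 CPM in the upper layers, and the sections of these layers did not overlap (59.7 to 106 and 10.3 to 28.1 CPM). Grik2 had a median of 60.7 CPM in dentate gyrus and 26.8 CPM in CA3. Grik1 had medians from 6.39 CPM in cerebral nuclei to 22.3 CPM in hypothalamus.

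Among the metabotropic receptors Grm5, a group I receptor coupled to phospholipase C, was highest in cerebral nuclei, with 160.1, 159.5, 169.4, 188.5, 161.4 and 166.9 CPM. Each of these sections was above all sections elsewhere, where the highest had 147.0 CPM, in hippocampus.

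Grm4, a group III receptor that lowers transmitter release, was highest in thalamus, with 62.3 to 105 CPM there and at most 39.5 CPM elsewhere. Grm2, a group II autoreceptor, marked the dentate gyrus among the named hippocampal clusters with 203.2, 174.8, 211.8, 173.0, 156.6 and 212.6 CPM, whereas CA1 had 0 to 14.0 CPM and CA3 10.4 to 22.1 CPM. In cortex Grm2 had a median of 64.0 CPM in upper layers and 18.5 CPM in layer 6. Grm7 was highest in thalamus in 4 of 6 sections (median 50.2 CPM). Grm3 and Grm8 were low, with 861 and 1833 UMIs in all spots and at most 7.75 and 13.4 CPM as the median of any area. Grm6, a receptor of retinal bipolar cells, had 5 UMIs in all.

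**Figure D2:**
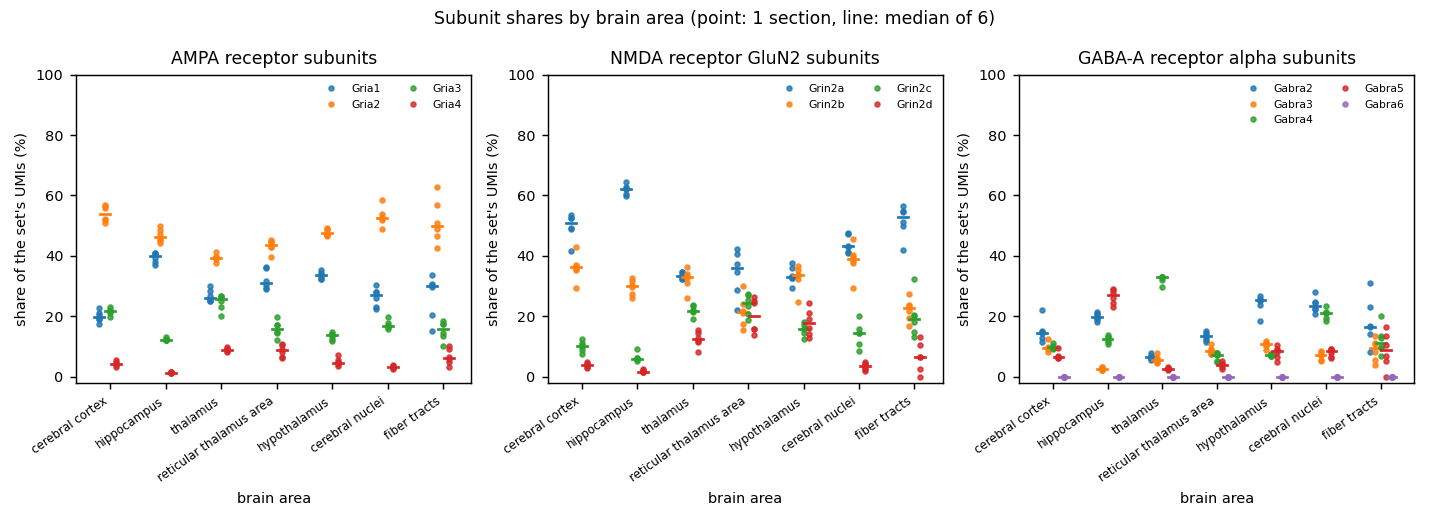
Share of each subunit in the summed UMIs of its set (percent, vertical axis) by brain area (horizontal axis). Each point is 1 section and each line the median of 6. Shares are of all subunits of a set, of which not all are drawn. Gria1 takes 40.0% in hippocampus, Grin2a 62.1%, and Gabra4 and Gabra5 change places between thalamus (33.0% and 2.69%) and hippocampus (12.6% and 26.9%).

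Alpha subunits of GABA-A receptors differed between hippocampus and thalamus. Gabra5, whose receptors sit largely outside synapses and carry tonic inhibition of pyramidal cells, had 196.6, 174.9, 201.3, 200.8, 196.6 and 156.2 CPM in hippocampus, 4.03-fold the median of cortex (48.7 CPM), and the highest section elsewhere had 74.8 CPM. In CA1 its median was 324 CPM, in CA3 236 CPM and in dentate gyrus 192 CPM. The promoter printed above had none of the GC boxes. Gabra4 had 297.2, 236.9, 294.3, 282.1, 289.0 and 231.5 CPM in thalamus, 2.92-fold the median of cerebral nuclei (97.7 CPM), with no overlap. Among the named hippocampal clusters Gabra4 was highest in dentate gyrus (142 to 167 CPM against 66.4 to 104 CPM in CA1 and CA3).

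Gabra2, another alpha subunit, had 48.8 to 62.8 CPM in thalamus, with the lowest median of the 7 areas (52.8 CPM), though fiber tracts overlapped with it (32.4 to 83.2 CPM). Its medians were 144 CPM in hippocampus and 141 in hypothalamus. Gabra3 had medians of 70.9 CPM in cortex and 19.3 CPM in hippocampus. Gabra6, restricted to cerebellar granule cells in the adult brain, had 1 UMI in all 14524 spots.

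**Figure D3:**
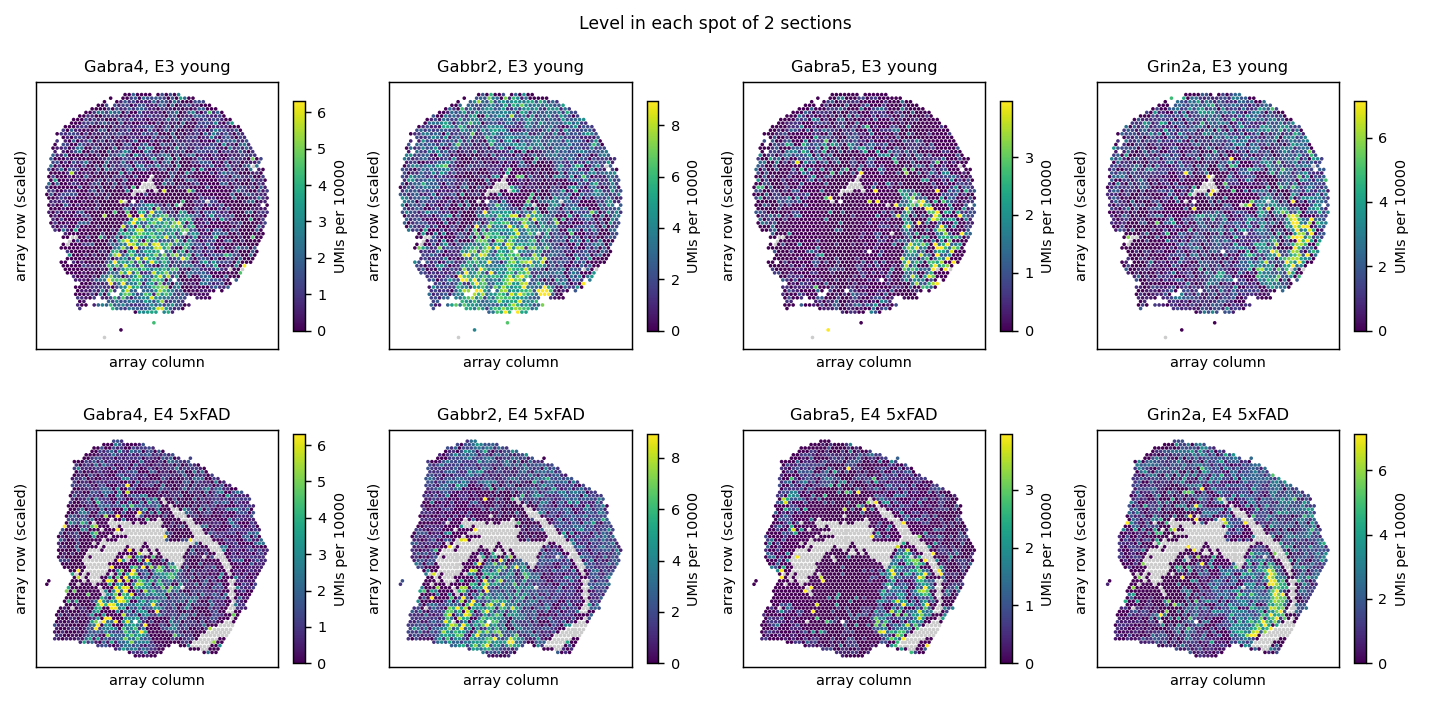
UMIs per 10000 UMIs in each spot of the E3 young and E4 5xFAD sections for Gabra4, Gabbr2, Gabra5 and Grin2a, on the array's columns and rows. Spots under 1000 UMIs are gray, the color scale is capped so that the brightest spots share 1 color, and each section keeps its orientation on the slide. Gabra4 and Gabbr2 are brightest in the same field, which is the thalamus, and Gabra5 and Grin2a in the field of the hippocampus.

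The delta subunit gene Gabrd, which forms receptors outside synapses together with Gabra4 or Gabra6, was highest in thalamus like Gabra4. Its levels in thalamus were 224.4, 151.7, 235.7, 199.7, 250.8 and 185.5 CPM, above cerebral nuclei in each section (113.6 to 185.9 CPM), although the ranges overlapped. In dentate gyrus Gabrd had a median of 106 CPM, against 31.5 in CA1 and 28.2 in CA3. Among the gamma subunits Gabrg1 led in hypothalamus (75.8 to 96.4 CPM) with a share of 29.1% of the gamma UMIs, against 5.96% in hippocampus.

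Gabrb2, a beta subunit, had 272 UMIs in all spots. Its gene model ended differently in the annotations at hand: on GRCm38 the RefSeq model (chr11:42419515-42632591, plus strand) ends 3563 bases beyond the end in GENCODE vM21, the largest such gap at a 3' end among the 39 members (the next was 1153 bases for Grik2). Visium reads lie near the 3' end, and the sources used here do not name the annotation the authors counted against. The part of this gap in the low count was not tested. Grin3b had 57 UMIs in all.

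Some GABA-A subunit genes lie in clusters. On chromosome 5 (chr5:70751047-72149572, GRCm38), Gabra4 led in thalamus, Gabrg1 in hypothalamus, and Gabra2 and Gabrb1 had no leading area that all sections shared. Gabrg3, on chromosome 7, was highest in hypothalamus in 5 of 6 sections.

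Both GABA-B receptor genes, whose products form an obligate pair, were highest in thalamus. Gabbr1, which binds GABA, had 675.2, 553.6, 658.3, 648.8, 686.1 and 681.2 CPM there and at most 533.2 CPM in the other 6 areas. Gabbr2, which couples to the G protein, had 504.6, 360.0, 486.4, 429.2, 465.9 and 398.7 CPM there and at most 253.9 CPM elsewhere, 2.04-fold over cortex by medians. A small habenula cluster, too small for the comparisons (14 to 44 spots in 5 sections), had more Gabbr1. Gabbr1 had 1167 CPM in the habenula of E3 young, 1217 and 1153 CPM in the aged E3 and E4 sections, and 1144 and 1317 CPM in the 5xFAD ones, and the lowest lower bound of these 5 exact Poisson 95% intervals (1005 CPM) was above the highest thalamic section. Gabbr2 in habenula had 577.2 CPM in E3 young, 566.7 and 489.8 CPM in the aged E3 and E4 sections, and 371.9 and 421.1 CPM in the 5xFAD ones, which overlapped with the thalamus. Such intervals cover counting error only.

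The first comparison between groups asked whether receptor genes differed in amyloid-bearing 5xFAD mice. No member passed the test. Over 7 areas, 226 pairs of a member and an area were tested, and edgeR's quasi-likelihood test called 0 at an adjusted p of 0.05, with 26 pairs at an unadjusted p under 0.05 (9 higher, 17 lower), and DESeq2 called 0 with 7 at that unadjusted p. Of all genes tested, edgeR called 0.956% in cortex, 1.26% in hippocampus, 2.03% in thalamus, 1.73% in the reticular thalamus area, 0.321% in hypothalamus, 1.07% in cerebral nuclei and 2.09% in fiber tracts. An unadjusted p under 0.05 was reached by 11.5% of member pairs and by 10.0% of all gene and area pairs. The model used both genotypes as the replicates of a condition and left 2 residual degrees of freedom, so p-values measure the spread between single sections. With 1 section left out, 1 degree was left, and the section alone in its condition was fitted exactly. Leaving out either aged section thus compares 5xFAD with young on the same 4 sections, and these 2 results are not separate. When 1 section was left out, calls numbered 6 or 0 (without the young E3 or E4 section), 9 or 8 (without the aged E3 or E4 section) and 4 or 2 (without the 5xFAD section of E3 or of E4).

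In cortex 9 of 36 members had a positive log2 fold change in 5xFAD, with a median of -0.14 against -0.01 over all genes. By levels, 10 of 36 members (27.8%) were lower in both 5xFAD sections than in both young sections, and 10.5% of all genes were. Lower than in all 4 other sections were 6 of 36 (4.69% of all genes): Gria2, Grin2b, Grm3, Grm8, Gabra5 and Gabrb2. Higher in both 5xFAD than in both young sections were 6 (16.7%, and 38.0% of all genes). The mix of cortical layers differed between these sections. The cluster named cortical layer 5 gave 114 of 900 and 139 of 804 cortex spots in young E3 and E4. It gave 209 of 940 and 269 of 853 in 5xFAD E3 and E4. The part of this mix in the cortical counts and levels was not tested. In hippocampus 2 of 35 were lower (11.2% of all genes) and 10 higher (27.8%), and in thalamus 4 of 35 were lower (10.8%) and 3 higher (27.0%). In cerebral nuclei 6 of 32 were lower (11.5%) and 8 higher (30.8%), with 4 below all other sections (5.76%): Gria2, Grin2b, Gabra3 and Gabbr2.

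Gria2 in cortex had 477.9, 503.6, 471.9, 478.3, 395.3 and 379.8 CPM. Both 5xFAD sections lay below the other 4. The log2 fold change against young was -0.44 ± 0.09 (SE) with an adjusted p of 0.0854 by edgeR. It ranged up to 1 over the alternatives, and was 0.0177 with no low-count filter. The change was -0.443 without E3 aged and -0.435 without E4 aged. The change of Gria2 was -0.32 ± 0.11 in cerebral nuclei (edgeR adjusted p 0.258, and a change of -0.326 without either aged section), -0.17 ± 0.10 in hippocampus and -0.16 ± 0.11 in thalamus. In cerebral nuclei both 5xFAD sections were again the lowest (364.1 and 405.1 CPM against 411.2 to 508.2).

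Grin2b had the smallest adjusted p of the 226 pairs, in cerebral nuclei. Its levels were 117.0, 135.4, 102.1, 117.4, 99.2 and 75.0 CPM, with E3 5xFAD barely below E3 aged and E4 5xFAD far below all others. The change was -0.61 ± 0.16 with an edgeR adjusted p of 0.0634, and the adjusted p ran up to 1 over the alternatives. It was called with no low-count filter (0.0144) and without section centring of clusters (0.0416). With 1 section left out, the change was -0.785 (E3 young), -0.606 (either aged section), -0.954 (E3 5xFAD) and -0.31 (E4 5xFAD). In cortex Grin2b had 125.1, 118.3, 120.4, 135.4, 112.2 and 91.0 CPM, a change of -0.37 ± 0.13 (edgeR adjusted p 0.354). This change was -0.371 without E3 aged and -0.363 without E4 aged. In hippocampus the change was -0.27 ± 0.11 (edgeR adjusted p 0.453), and both 5xFAD sections (148.1 and 133.3 CPM) were the lowest there too. It was the only member of 35 below all other sections in hippocampus (4.98% of all genes).

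Grm3, which encodes a group II receptor found on astrocytes as well as neurons, had the largest negative fold changes. In cortex it had 7.39, 6.60, 6.62, 4.21, 3.84 and 3.92 CPM, so that the E4 aged value was close to the 5xFAD sections. The change was -0.95 ± 0.22 in cortex (edgeR adjusted p 0.145), -1.30 ± 0.44 in hippocampus (0.256), -1.48 ± 0.52 in thalamus (0.295) and -1.05 ± 0.44 in cerebral nuclei (0.369). These rest on few molecules, with 861 UMIs over all spots of the study. The cortical value was called with no low-count filter (0.0283) by the same test. It was -0.948 without E3 aged and -0.941 without E4 aged, and the thalamic value was -2.18 without E3 young. Grm8 in cortex changed by -0.57 ± 0.18 (edgeR adjusted p 0.296, and changes of -0.574 and -0.566 without E3 aged and E4 aged) and Gabrb2 by -0.55 ± 0.34. The 3 highest fold changes in cortex were 0.18 ± 0.18 for Grik1, 0.18 ± 0.20 for Grin3a and 0.14 ± 0.17 for Grin2d, each below its standard error.

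In hippocampus the 3 highest were Grin2d (0.54 ± 0.26), Grm4 (0.52 ± 0.25) and Grin2c (0.32 ± 0.15), with edgeR adjusted p of 0.539, 0.533 and 0.539, and the lowest beside Grm3 and Grin2b was Grik4 (-0.24 ± 0.18). The levels of Grin2c there were 31.2, 31.8, 26.7, 33.4, 34.0 and 46.5 CPM, which were higher in both 5xFAD sections than in the other 4.

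The reticular thalamus area went the other way. There 28 of 34 members had a positive fold change in 5xFAD, with a median of 0.21 against 0.01 over all genes, and 19 of 33 members (57.6%) were higher in both 5xFAD than in both young sections, as were 33.6% of all genes. Lower in both were 0 of 33 (10.6% of all genes). Neuronal markers summed to 9387 and 9140 CPM in this area of the 5xFAD sections and to 7757, 7880, 8637 and 8469 CPM in the other 4, and their part in this shift was not tested. Scaled to neuronal markers, 22 of 34 members were positive, with a median of 0.10 against -0.10 over all genes. The spots of this area also differed between sections. It held 193, 227, 114, 109, 186 and 213 spots, of which 136, 166, 44, 28, 59 and 68 had at least 5000 UMIs. Clusters made without centring by section gave it 122, 83, 85, 91, 136 and 157 spots. The part of these differences in the shift was not tested. Grik3 had 27.9, 17.9, 26.3, 26.9, 36.8 and 46.7 CPM, with both 5xFAD sections the highest. It changed by 0.80 ± 0.27 (edgeR adjusted p 0.179, and 0.0178 without E3 young). In cerebral nuclei Gabrd had 123.1, 113.6, 128.1, 163.8, 185.9 and 167.9 CPM, a change of 0.47 ± 0.14 (edgeR adjusted p 0.146, and changes of 0.488 and 0.489 without E3 aged and E4 aged), where both 5xFAD sections were the highest.

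Other cells moved with the 5xFAD condition. By the same edgeR test, 10 of 12 microglia markers rose in cortex, 11 in hippocampus, 11 in thalamus, 9 in cerebral nuclei and 7 in the reticular thalamus area, and their summed level in cortex was 650, 522, 681, 740, 1769 and 2343 CPM. All 10 oligodendrocyte markers fell in cerebral nuclei (summed levels of 4742 to 7578 CPM in the other 4 sections, and 3724 and 3799 in 5xFAD) and in the reticular thalamus area (10750 to 17440 CPM, and 8337 and 7113), and none was called in cortex. The 13 neuronal markers summed to 10220 to 11720 CPM in cortex, and 0 were called there. Malat1, a nuclear RNA, fell in all 7 areas (by 1.08 on the log2 scale in cortex, edgeR adjusted p 0.0236), and all 7 mitochondrial genes of the list fell in hippocampus and in the reticular thalamus area. The part of these shifts in the receptor values was not tested. Scaled to neuronal markers instead of all genes, 0 pairs were called as well, and the median change of members in cortex was -0.10 against 0.03 for all genes.

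**Figure D4:**
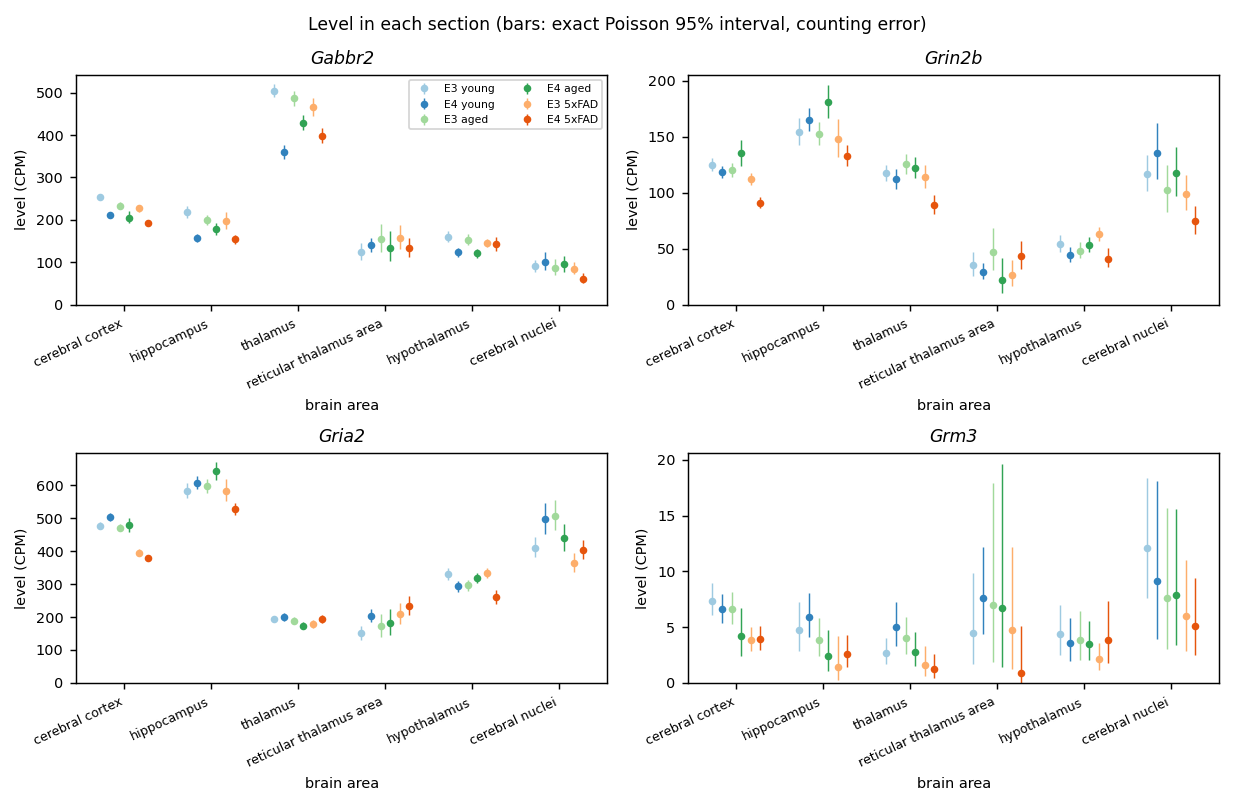
Level (CPM, vertical axis) of Gabbr2, Grin2b, Gria2 and Grm3 in each section, by brain area (horizontal axis). Points are single sections and bars exact Poisson 95% intervals (counting error). Gria2 in cortex is at 395 and 380 CPM in 5xFAD against 472 to 504 elsewhere, and Gabbr2 is lower in each E4 section than in each E3 section in cortex, hippocampus, thalamus and hypothalamus.

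The second comparison was E4 against E3 over the 3 conditions. Again edgeR called 0 of 226 pairs, with 28 at an unadjusted p under 0.05 (6 higher, 22 lower), which is 12.4% of member pairs and 6.72% of all gene and area pairs, and DESeq2 called 0 with 7 at that p. The percent of all genes called by edgeR was 0.0134 in cortex, 0.121 in hippocampus, 0.0149 in thalamus, 0.0877 in the reticular thalamus area, 0.0687 in hypothalamus, 0.0461 in cerebral nuclei and 0.0426 in fiber tracts. Calls numbered 2 (Gabbr2 and Gabra2 in cortex) without the aged E3 section, 1 without the aged E4 section, 1 without either of the 5xFAD sections and 0 without either young one. In cortex 11 of 36 members and in hypothalamus 10 of 35 had a positive fold change (medians of -0.09 and -0.08, and 0.00 and 0.01 over all genes). By single pairs of sections, the aged pair went the other way. Higher in E4 than in E3 were 11, 22 and 13 of 36 members in cortex (young, aged and 5xFAD pairs). In hypothalamus these were 8, 23 and 11 of 35. Of all genes, 51.9%, 52.8% and 64.8% were higher in E4 in cortex, and 53.8%, 51.4% and 56.0% in hypothalamus. The other areas did not share the skew of the fits to the same degree. Positive were 22 of 34 in the reticular thalamus area (median 0.09), 18 of 35 in hippocampus (0.00) and 15 of 36 in thalamus (-0.04). In cerebral nuclei 15 of 34 (-0.03) and in fiber tracts 7 of 16 (-0.06) were positive. Scaled to neuronal markers, 19 of 36 were positive in cortex, with a median of 0.00 against 0.09 over all genes, and 10 of 35 in hypothalamus.

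Gabbr2 had lower levels in E4 in cortex, hippocampus, thalamus and hypothalamus. In cortex the E3 sections (young, aged, 5xFAD) had 253.9, 233.4 and 227.5 CPM and the E4 sections 211.3, 205.5 and 192.4 CPM. In hippocampus these were 218.1, 200.4 and 197.5 against 156.5, 177.7 and 154.0 CPM, and in hypothalamus 159.6, 153.4 and 145.0 against 123.6, 120.7 and 142.3 CPM. With the thalamic values given above, no E4 section reached an E3 section in any of these areas. The share of all genes with every E4 section below every E3 section was 2.82% in cortex, 5.23% in hippocampus, 6.77% in thalamus and 4.89% in hypothalamus, and 3 of 36, 3 of 35, 8 of 35 and 5 of 34 members were. The reverse order held for 1, 0, 0 and 1 members (7.61%, 3.94%, 3.83% and 6.93% of all genes). In all 4 areas at once this held for 16 of 11328 genes (0.141%) and for 1 of 34 members, Gabbr2. The areas come from the same 6 sections, so they are not independent. Gabbr2 was singled out after its values were seen, and these 4 areas are the only fitted areas in which it showed this order. The share for all 4 areas at once was thus set by the values of Gabbr2 and is no support for it. In hypothalamus the counting intervals of the 5xFAD sections overlapped (135.6 to 154.8 CPM in E3, 127.3 to 158.5 CPM in E4).

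The log2 fold change of Gabbr2 was -0.27 ± 0.07 in cortex, -0.33 ± 0.09 in hippocampus, -0.28 ± 0.10 in thalamus and -0.27 ± 0.09 in hypothalamus, with edgeR adjusted p of 0.871, 0.368, 0.631 and 0.516. Over the alternatives the adjusted p ran up to 1 in cortex and in hypothalamus, and none was called in hippocampus or thalamus. The change was -0.301 in cortex without E3 aged. In hypothalamus it was -0.372 without E3 5xFAD and -0.373 without E4 5xFAD, which compare the genotypes on the same young and aged sections. Scaled to neuronal markers the changes were -0.18, -0.20, -0.14 and -0.26. Neuronal markers summed to 12220, 12130 and 11670 CPM in the thalamus of E3 sections and to 10010, 11130 and 11190 CPM in that of E4 sections, and their part in the thalamic value was not tested. In the thalamic relay clusters alone, without the medial cluster of E4 young, E3 sections had 505.1, 487.2 and 466.8 CPM of Gabbr2 and E4 sections 436.9, 429.6 and 398.7 CPM, still without overlap. Of the relay clusters, 1 was led by Gbx2, a marker on the medial list, and gave 297, 124, 243, 192, 144 and 198 spots. The cluster led by Prkcd gave 234, 163, 252, 291, 234 and 242. The part of this mix was not tested. In the reticular thalamus area and the cerebral nuclei the change was -0.09 ± 0.14 and -0.13 ± 0.14.

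Of the 8 members with every E4 section below every E3 section in thalamus, the others included Gabrd, Gabra4, Gabrb1, Gria3, Gria4 and Grm4. For Gabra4 and Gabrd the E4 young section was low (236.9 and 151.7 CPM), and in its relay clusters alone it had 292.7 and 215.6 CPM, within the range of E3 sections for Gabra4 (289.2 to 297.2) but below it for Gabrd (224.6 to 251.2). The 8 members thus include Gabra4, for which the order did not hold in the relay clusters alone. In cortex the 3 lowest fold changes were those of Grm4 (-0.40 ± 0.14), Gabbr2 and Gabrd (-0.26 ± 0.11), and the 3 highest those of Gabra5 (0.20 ± 0.12), Grik2 (0.19 ± 0.13) and Grin2c (0.14 ± 0.12), with edgeR adjusted p of 0.871 to 0.898. The E4 aged cortex, nearly without upper layers, enters these cortical values, and its part was not tested. In hippocampus the 3 highest were Gabrg3 (0.29 ± 0.22), Grin2c (0.27 ± 0.13) and Gabra3 (0.15 ± 0.18), and the 3 lowest Grik4 (-0.39 ± 0.14), Grm8 (-0.39 ± 0.33) and Grik3 (-0.34 ± 0.16), with edgeR adjusted p of 0.652 to 0.946.

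**Figure D5:**
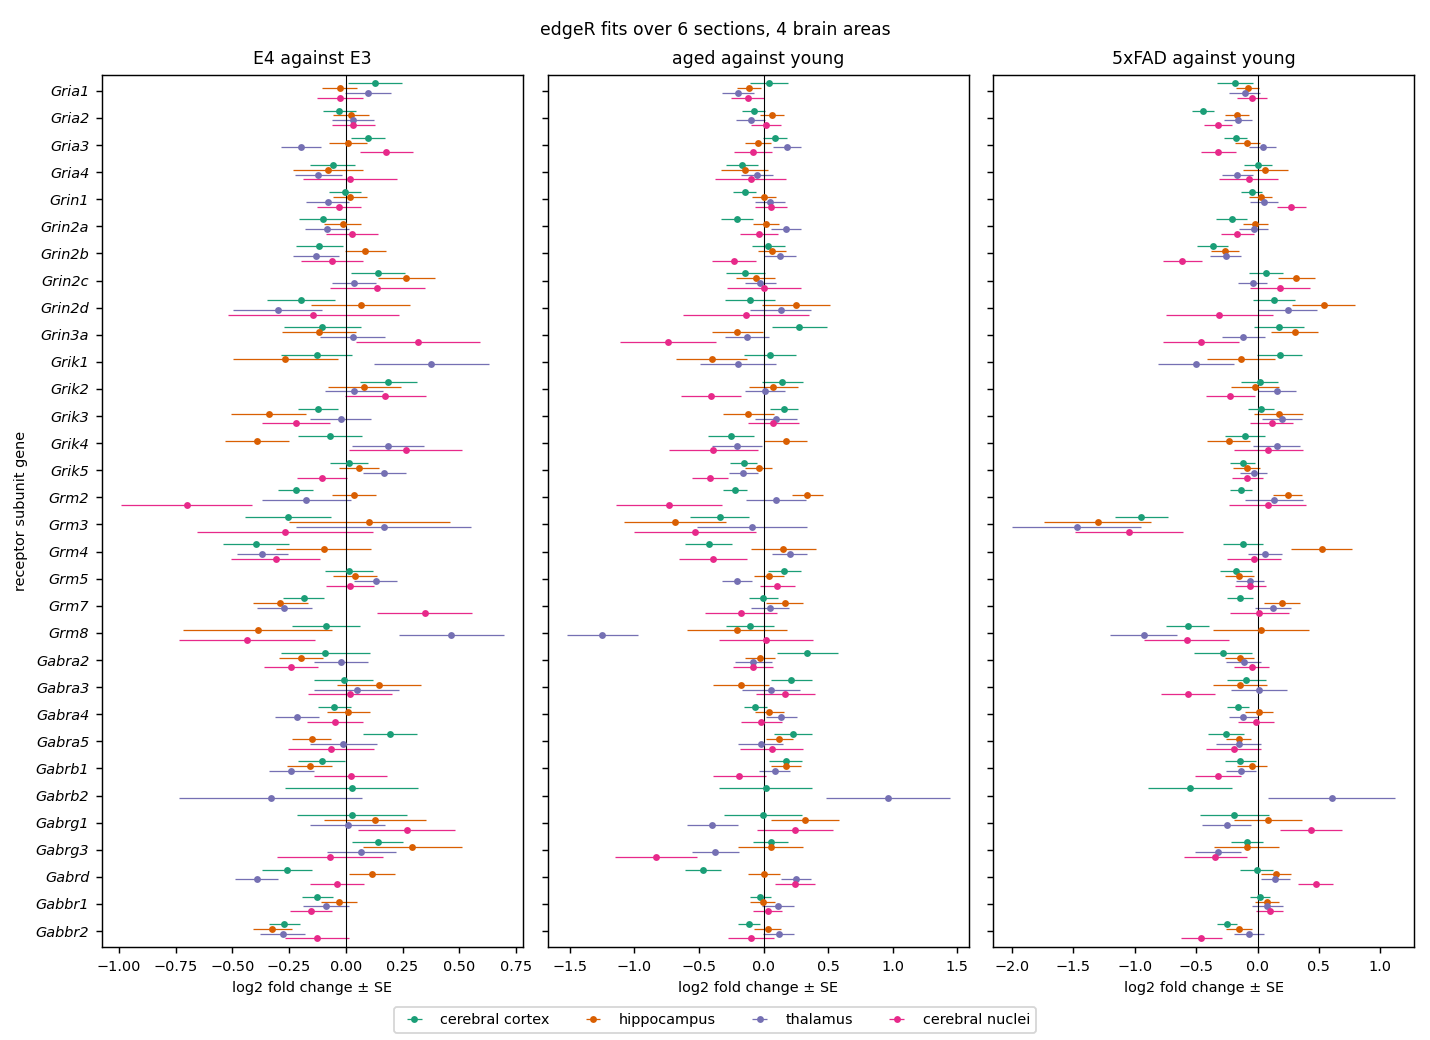
Log2 fold change ± SE (horizontal axis) of each member tested (vertical axis) in edgeR fits over the 6 sections, for E4 against E3, aged against young and 5xFAD against young, in 4 areas by color. No point passes an adjusted p of 0.05. Gria2 in cortex (-0.44) and Grin2b in cerebral nuclei (-0.61) against young, and Gabbr2 (-0.27 to -0.33 in cortex, hippocampus and thalamus) against E3, lie more than 2 SE from 0.

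The third comparison, aged against young, gave the fewest pairs at an unadjusted p under 0.05. With edgeR 0 of 226 pairs were called and 13 had an unadjusted p under 0.05 (5.75%, and 5.51% of all gene and area pairs), and DESeq2 called 0 with 2 at that p. The percent of all genes called by edgeR was 0.0201 in cortex, 0.401 in hippocampus, 0.156 in thalamus, 0.0877 in the reticular thalamus area, 0.183 in hypothalamus, 0.212 in cerebral nuclei and 0.213 in fiber tracts. Calls numbered 9 without E3 aged and 4 without E3 young, and 0 when any other section was left out. All 9 were in cortex, where the small E4 aged cortex then stood alone for age. Both aged sections were below both young ones for 3 of 36 members in cortex (13.5% of all genes), 5 of 35 in hippocampus (17.8%) and 9 of 35 in thalamus (19.0%), and above them for 4 (20.4%), 4 (16.7%) and 3 (13.1%).

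The closest to a call was Grm8 in thalamus, with 8.49, 10.2, 3.52, 4.26, 3.66 and 6.86 CPM. Both aged sections and both 5xFAD sections lay below the young ones. The change was -1.25 ± 0.28 for aged and -0.93 ± 0.27 for 5xFAD against young, with edgeR adjusted p of 0.234 and 0.181, and the aged value was called with no low-count filter (0.0115). In E4 young, however, the relay clusters alone had 2.69 CPM of Grm8, below the other sections, from 10 UMIs, and with the same number of spots from each cluster in every section the 5xFAD change was 0.23. In cortex Gabra2 (0.34 ± 0.24) and Grin3a (0.28 ± 0.21) were among the 3 highest changes with age, and the 3 lowest Gabrd (-0.47 ± 0.14), Grm4 (-0.43 ± 0.18) and Grm3 (-0.34 ± 0.23), with edgeR adjusted p of 0.944 or 0.945. Gabrd had 91.6, 83.8, 77.7, 51.0, 93.1 and 93.8 CPM, where E4 aged was lowest, and in upper cortical layers, nearly missing from that section, its median was 119 CPM against 75.4 in layer 6. The part of the missing layers in the low value was not tested. In hippocampus Grm2 (0.34 ± 0.12) and Gabrg1 (0.32 ± 0.26) were the highest, and the 3 lowest Grm3 (-0.69 ± 0.40), Grik1 (-0.40 ± 0.28) and Grm8 (-0.20 ± 0.39), with edgeR adjusted p of 0.666 to 0.986.

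Most genes that work with the receptors did not pass the test either. In the 7 areas and 3 comparisons, edgeR called 0 of 22 genes of the excitatory postsynaptic scaffold, 0 of 19 auxiliary subunits of glutamate receptors, 0 of 17 genes of the inhibitory scaffold and GABA-B partners, and 0 of 8 delta, rho and other minor receptor subunit genes. Of 12 genes of glutamate synthesis, release and uptake, 3 were called, all in 5xFAD. Slc38a3, a glutamine transporter, rose by 0.74 ± 0.13 in hippocampus (edgeR adjusted p 0.00707). Glul, glutamine synthetase, fell by 0.54 (0.0165) and Slc17a6, a vesicular glutamate transporter, fell by 0.76 (0.0349) in the reticular thalamus area, with the same test. Of 8 genes of GABA synthesis, release and uptake, Slc32a1, the vesicular GABA transporter, was higher in the fiber tracts of 5xFAD sections by 1.31 ± 0.30 (edgeR adjusted p 0.0101), where neuronal markers summed to 5567 and 5989 CPM against 4368 to 4966 in the other 4 sections.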

How the data were processed

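Per the labels and methods, 3' libraries of frozen coronal sections of 10 µm (Visium) were taken through Space Ranger 1.3.0 by the authors, and their processing notes also name STAR 2.5.1b, mm10 and GRCh38. In the headers of the matrices, 5 sections give Space Ranger 1.2.2, whereas E3 5xFAD gives 2.0.0. The effect of this was not tested. The deposited matrices hold raw counts of UMIs for each gene in each barcode. Spots in the deposited tissue mask with a barcode in the matrix were used (14524 of 16979). This was 99.9% of the mask in E3 5xFAD, 75.9% in E4 aged and 81.3% to 86.0% in the other sections, and its effect was not tested. Mouse genes and a few human transgenes were kept.

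Spots were scaled to 10000 UMIs and log-transformed. Total UMIs and the mitochondrial fraction of each spot were regressed out, and values were centered by section. Members and human genes were left out, and the 3000 most variable of the remaining genes were used (24 members would have been among the top 3000). A nearest neighbor graph (20 neighbors, 20 components) was split by the Louvain method (resolution 0.8, 10 starts) into 20 clusters, with scikit-learn 1.9.0 and igraph 0.11.9 in Python 3.11.15. Clusters were assigned to areas by marker z scores. The rules for the reticular thalamus area and habenula were set after clusters were seen. Section sums per area with at least 50 spots in every section were tested by edgeR 4.0.16 (R 4.3.3; TMM, filterByExpr, quasi-likelihood, genotype plus condition), adjusted by Benjamini-Hochberg over all genes of the area. DESeq2 1.42.0 was an alternative. Levels have exact Poisson and shares exact binomial 95% intervals for counting error. Scripts for tests were tested on simulated data.

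Members, lists and tests were chosen with earlier results of these data known. Named members are those called, those leading an area in all 6 sections, the 3 highest and lowest fold changes of each comparison in cortex and hippocampus, the member with most UMIs in each family and those under 100 UMIs. Others, such as Grin2b in cerebral nuclei or Grik3 in the reticular thalamus area, were named after their values were seen. Of the members, 4 are not reported by name here, though counts and medians over the members hold them.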

Additional observations from a re-analysis of the deposited data

Results flagged for a closer look

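For 7 of 438 combinations of a member, an area and a comparison with enough UMIs, the section ratios ran in opposite directions in E3 and E4 mice, each at least 0.3 on the log2 scale with a counting interval away from 0. With 1 section a group the difference between the genotypes was not tested. The values are log2 ratios in E4 minus those in E3. For 5xFAD over young in thalamus, the difference was 1.32 for Gabra3 (-0.54 in E3, 0.78 in E4), 1.44 for Grm2 (-0.47 and 0.97) and 0.86 for Grin3a (-0.45 and 0.41). For aged over young in thalamus it was 0.89 for Gabra3 (-0.35 and 0.54) and 1.07 for Grin2d (-0.33 and 0.74). All 5 share the young sections of thalamus, where E4 young was the lowest in its relay clusters alone, with 24.7 CPM of Gabra3, 28.2 of Grm2, 27.4 of Grin2d and 27.9 of Grin3a. Outside the thalamus, Gabra5 in hypothalamus differed by -1.56 for 5xFAD over young (0.62 in E3, -0.94 in E4), and Gabrg1 in cortex by 1.22 for aged over young (-0.56 and 0.66), the latter with the small E4 aged cortex. For Gabra5 in hypothalamus the 5xFAD change was -0.03 with both genotypes, -1.02 without E3 5xFAD and 0.56 without E4 5xFAD (edgeR adjusted p 0.989, 0.000354 and 0.0463). The hypothalamus joins 2 clusters. Of the 5xFAD sections, E3 had 190 and 194 spots of them and E4 had 89 and 32. Of the young sections, E3 had 120 and 134 and E4 had 147 and 95. The part of this mix was not tested.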

How the results depend on the processing

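The 0 calls became, without centring clusters by section, 6 for 5xFAD against young and 1 for aged against young (Gria1 in fiber tracts, -1.35), and with no low-count filter 4 and 1. Leaving out 1 section gave 0 to 9 calls for 5xFAD, 0 to 9 for aged and 0 to 2 for E4 against E3. RLE scaling, scaling to neuronal markers, the same number of spots from each cluster, DESeq2 and spots of at least 5000 UMIs (6 areas) gave 0 in the 3 comparisons. Scaling to neuronal markers moved the median of all genes by up to -0.17 and 0.17 in fiber tracts (5xFAD and aged) and by 0.14 in thalamus (E4). Of 52 named changes under the alternatives, 628 values kept direction and side of the threshold, 29 gained a call and 15 reversed. With the same spots of each cluster Grin3a in cortex with age became -0.22 and Grm8 in thalamus of 5xFAD 0.23. With sections left out, the ranges that crossed 0 among these changes were -0.13 to 0.44 for Gabra3 in hippocampus (E4), -0.24 to 0.023 and -0.24 to 0.11 for Gabbr2 in the reticular thalamus area and cerebral nuclei (E4), -0.19 to 0.83 for Gabra2 and -0.13 to 0.74 for Grin3a in cortex (aged), -0.23 to 0.84 for Gabrg1 and -0.59 to 0.14 for Grm8 in hippocampus (aged), -0.052 to 0.40 for Grik1 and -0.058 to 0.38 for Grin3a in cortex (5xFAD), and -0.62 to 0.10 for Grik4 in hippocampus (5xFAD). Gabra5 in hypothalamus (5xFAD), given above, crossed from -1.02 to 0.56. The cause was not tested. The leading subunit of its set matched in 41 of 42 sets and areas under either alternative. Replicate numbers pair no sections, since each group has 1 section. The model of genotype plus condition compares genotypes within conditions and conditions within genotypes. Depth limits low members most: fiber tract spots had a median of 541.5 UMIs and tested 16 members.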
